A study of Mus musculus with 15 samples.

Results

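Genes for proteins of the basement membrane and of the microfibrils beside it were followed in the hearts of mice heterozygous for Lmna H222P. They encode the collagen IV chains Col4a1 and Col4a2, the collagen VI chains Col6a1, Col6a2 and Col6a3, the collagen XV chain Col15a1, the laminin chains Lama2, Lamb1 and Lamc1, and nephronectin (Npnt). Every probe set annotated to 1 gene symbol that is on this list was taken, which gave 20 probe sets for the 10 genes out of 45101 probe sets on the array. Of these, 18 passed the filter on low signals, at least 1 for each gene, and the 2 others are described without a test. The 7 heterozygous mice carried the H222P substitution on 1 allele of Lmna, the gene for the nuclear lamina proteins lamin A and lamin C, and the 8 others were labelled control. All 15 mice were males at 10 weeks, and total RNA of the whole heart was read on 1 Affymetrix array per mouse. The labels give no strain, littermate status or line of origin, and they do not say how the H222P allele was made. They do not say that any mice were pooled.

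Basement membranes are thin sheets that surround every heart muscle cell and underlie the endothelium. A laminin trimer of an alpha, a beta and a gamma chain assembles at the cell surface, where it binds integrins and dystroglycan, and a collagen IV network is laid over it. Collagen VI forms beaded microfibrils that connect the basement membrane to the interstitial matrix, and collagen XV sits in the outer zone of muscle and capillary basement membranes. Nephronectin is a secreted matrix protein best known as a ligand of the integrin alpha 8 beta 1 receptor.

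The values are the deposited signals, in linear units, and a difference is the mean log2 signal of the heterozygous arrays minus that of the control arrays. P-values come from limma across 38870 probe sets, adjusted by the Benjamini-Hochberg method, with a threshold of 0.05. Lmna itself had a geometric mean of 772.1 units in heterozygous hearts and 574.8 units in control hearts, a log2 difference of 0.43 that did not pass (adjusted p = 0.349). Over all tested probe sets the median difference was -0.11, and it was -0.055 with the filter raised to a log2 signal of 6. A member's difference is read beside these values, and neither is a fixed baseline for strong signals. Heterozygous array 2 stood apart. The log2 ratio of the 3′ to the 5′ probe set of Actb, a measure of RNA integrity, was 1.69 on that array, the highest of the 15. It was above 1 on 4 arrays, which were heterozygous 2, 3 and 5 and control 6, and values without them are given gene by gene. Defining markers of ventricular muscle were present on all arrays, with a summed signal of 122824 to 315373 units in heterozygous hearts and 156145 to 453907 units in control hearts.

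Few members differed between the genotypes beyond the spread of the arrays. Of the 18 tested member probe sets, 1 passed the adjusted threshold, a higher signal of Npnt in heterozygous hearts, against 0.252% of all 38870 probe sets (0.0900% higher). At an unadjusted p under 0.05 there were 5, against 14.6% of all probe sets: 2 were higher in heterozygous hearts (Lama2 and Npnt), against 4.44% of all, and 3 were lower (Col4a1, Col15a1 and another probe set of Npnt), against 10.1% of all. The heterozygous and control arrays overlapped in all 18, and they did not overlap in 0.468% of all probe sets. Of all 38870 probe sets tested, 23350 had a difference below 0. All 8 collagen probe sets had a difference below 0, with a median of -0.29, but 2 of them, 1 each of Col6a1 and Col6a2, lay above 0 with each array centred on its median. With quantile normalization all 8 lay below 0, with a median of -0.33. Of the 6 laminin probe sets, 5 had a difference above 0, with a median of 0.19 over the 6, and all 6 did after centring. Of these 5, 3 were probe sets of Lamb1, and the probe set of Lamc1 with the highest mean lay below 0. The difference between collagens and laminins was not tested. Without heterozygous 2, 3 of the 8 collagen probe sets lay above 0. Over all tested probe sets the median difference was 0.10 after centring and -0.016 with quantile normalization.

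**Figure D1:**
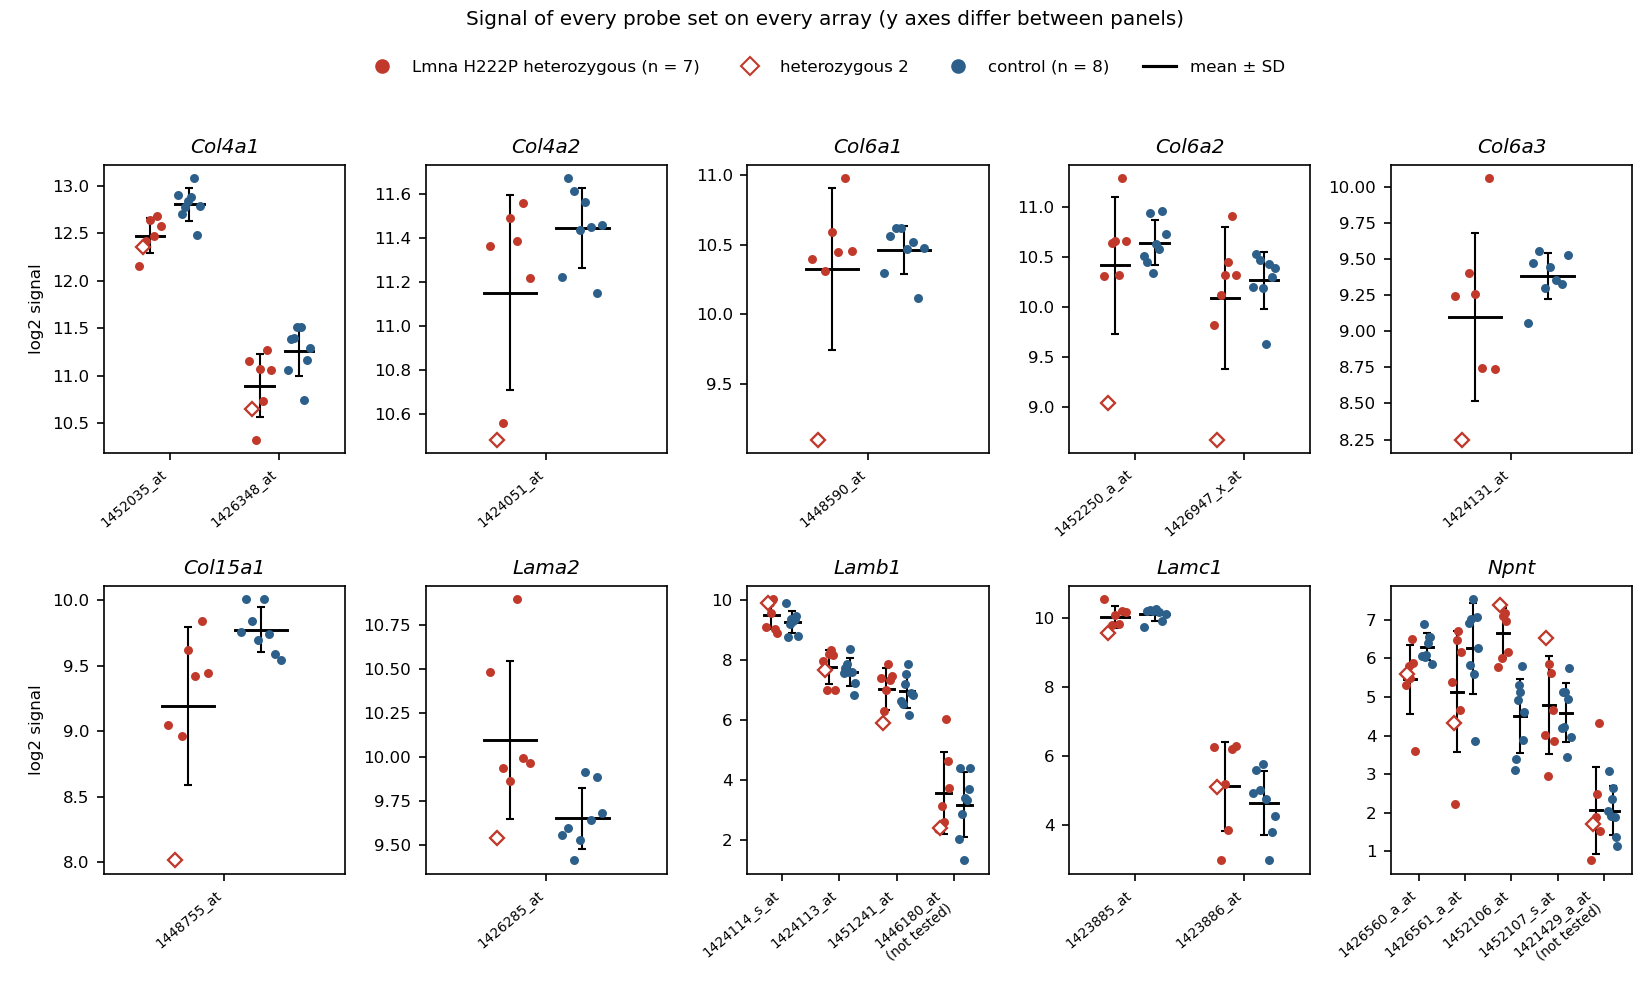
Log2 signal of all 20 probe sets of the 10 genes on every array, with 7 heterozygous arrays to the left of 8 control arrays in each pair of columns, with lines for the mean and SD; the open diamond is heterozygous 2. In the Npnt panel the groups move in opposite directions between probe sets, and in the collagen panels heterozygous 2 is often the lowest point.

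Col4a1 and Col4a2 encode the chains that make the most widespread collagen IV trimer. Col4a1 was measured by 2 probe sets, and both were lower in heterozygous hearts. In the first (1452035_at), the lowest, median and highest signals were 4572.9, 5677.1 and 6589.7 units in heterozygous hearts, against 5719.4, 7201.7 and 8652.9 units in control hearts. The ranges overlapped, and 4 of 7 heterozygous arrays lay below the lowest control array. The log2 difference was -0.33 (95% interval -0.61 to -0.06), with an unadjusted p of 0.020 and an adjusted p of 0.264 in limma, which did not pass. The second probe set (1426348_at) had 1283.2, 2129 and 2474.3 units in heterozygous hearts, against 1708.6, 2588.7 and 2928.3 units in control hearts. Its difference was -0.36 (adjusted p = 0.350). The difference of the first probe set was -0.31 without heterozygous 2, -0.25 without the 4 arrays of high Actb ratio and -0.13 with each array centred on its median. That of the second was -0.32, -0.19 and -0.16 in the same 3 fits, and -0.20 with the Actb ratio as a covariate. With quantile normalization the difference was -0.37 in the first probe set and -0.42 in the second.

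Col4a2 had 1431.9, 2632.9 and 3017 units at the lowest, median and highest heterozygous array, against 2272.2, 2804.65 and 3261 units in control hearts. Heterozygous arrays were more spread out than control arrays, with SDs of 0.44 and 0.18 on the log2 scale, and 2 of 7 lay below the lowest control array. The difference was -0.29 (95% interval -0.69 to 0.10; adjusted p = 0.484). It was -0.18 without heterozygous 2, -0.20 without heterozygous 3 and -0.036 without the 4 arrays.

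The genes for Col4a1 and Col4a2 lie head to head on chromosome 8, on opposite strands. Their annotated starts, at 11312826 for Col4a1 on the minus strand and 11312805 for Col4a2 on the plus strand, are 21 bases apart, so the annotated transcripts overlap at their 5′ ends. There are 0 coding genes between them, and the windows from 250 bases before to 50 bases after each start share 78 bases. The windows are shown because these 2 genes encode partner chains and both lay below 0. Sequences are from RefSeq on GRCm38.p6, which holds 9 of the 10 members in its promoter table, and capitals mark the shared bases, read on opposite strands.
Col4a1, chr8:11312777-11313076, minus strand: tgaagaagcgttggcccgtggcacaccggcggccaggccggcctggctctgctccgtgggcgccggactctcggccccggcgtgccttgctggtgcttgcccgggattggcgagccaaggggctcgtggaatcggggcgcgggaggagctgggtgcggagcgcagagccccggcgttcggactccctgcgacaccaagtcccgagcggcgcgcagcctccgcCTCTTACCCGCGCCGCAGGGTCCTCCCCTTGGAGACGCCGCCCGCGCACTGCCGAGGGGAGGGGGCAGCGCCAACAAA
Col4a2, chr8:11312555-11312854, plus strand: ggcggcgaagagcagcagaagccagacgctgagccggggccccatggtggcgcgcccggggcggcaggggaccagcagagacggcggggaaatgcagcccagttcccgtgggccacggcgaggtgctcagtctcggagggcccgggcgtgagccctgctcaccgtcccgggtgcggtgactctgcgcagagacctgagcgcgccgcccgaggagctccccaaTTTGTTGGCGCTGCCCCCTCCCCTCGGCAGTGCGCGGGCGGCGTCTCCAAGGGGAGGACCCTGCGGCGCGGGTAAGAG

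The shared bases hold 1 GGGCGG and 0 CCAAT, searched on both strands. Among all 32851 mouse promoter windows of this length, 35.7% hold GGGCGG, 37.4% hold CCAAT and 13.6% hold TATAAA. Of the 11 member windows, 7 hold GGGCGG, 3 hold CCAAT and 0 hold TATAAA, and different motifs overlapped 0 times. These are descriptions of letters in a window and do not locate a bound factor.

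Collagen VI is built from 3 different chains that form 1 monomer. Its genes differed by -0.13 to -0.28, and their signals were more spread out in heterozygous hearts. Col6a1 had 548, 1393.1 and 2015.9 units at the lowest, median and highest heterozygous array, against 1110.4, 1445.35 and 1572.1 units in control hearts. Both the lowest and the highest of all 15 arrays were heterozygous, and the log2 SDs were 0.58 in heterozygous hearts and 0.17 in control hearts. The difference was -0.13 (95% interval -0.60 to 0.34; adjusted p = 0.817). Without heterozygous 2 it was 0.071, and without the 4 arrays it was 0.16.

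Col6a2 was measured by 2 probe sets. In 1452250_a_at it had 528, 1592.9 and 2503 units in heterozygous hearts, against 1299.4, 1562.05 and 1996.1 units in control hearts, with a difference of -0.23 (adjusted p = 0.722). In 1426947_x_at the difference was -0.18 (adjusted p = 0.796). Both intervals spanned 0: it ran from -0.77 to 0.32 in the first and from -0.75 to 0.39 in the second. Without heterozygous 2 the differences were 0.0034 and 0.056. Col6a3 had 304.4, 606.3 and 1067.2 units in heterozygous hearts, against 533.5, 676 and 753.8 units in control hearts. Its difference was -0.28 (adjusted p = 0.585), with 3 of 7 heterozygous arrays below the lowest control array and 1 above the highest. It was -0.14 without heterozygous 2, -0.44 without heterozygous 6 and -0.058 without the 4 arrays.

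Col6a1 and Col6a2 are neighbours on chromosome 10, with 0 coding genes between them. The Col6a1 window is printed beside that of Col15a1 because these genes had the highest Pearson correlation among the 45 pairs of members (r = 0.92). No capitals are used.
Col6a1, chr10:76725995-76726294, minus strand: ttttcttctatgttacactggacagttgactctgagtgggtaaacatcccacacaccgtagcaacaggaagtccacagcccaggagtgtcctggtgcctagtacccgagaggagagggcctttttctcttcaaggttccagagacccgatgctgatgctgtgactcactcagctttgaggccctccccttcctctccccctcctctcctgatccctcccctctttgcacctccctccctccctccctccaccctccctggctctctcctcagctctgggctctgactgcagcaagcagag
Col15a1, chr4:47207762-47208061, plus strand: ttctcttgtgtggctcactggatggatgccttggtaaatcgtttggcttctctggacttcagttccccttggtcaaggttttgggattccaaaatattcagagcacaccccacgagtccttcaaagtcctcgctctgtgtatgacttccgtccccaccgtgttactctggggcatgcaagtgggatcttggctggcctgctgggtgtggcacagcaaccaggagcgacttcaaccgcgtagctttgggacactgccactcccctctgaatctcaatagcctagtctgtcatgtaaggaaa

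Col15a1, a collagen that carries chondroitin sulfate chains and anchors basement membrane to the surrounding fibrils, had the largest difference of the 6 collagen genes. Its signals were 258.5, 686.1 and 919.4 units at the lowest, median and highest heterozygous array, against 747.6, 861.5 and 1030.2 units in control hearts. Of the heterozygous arrays, 5 of 7 lay below the lowest control array. The geometric mean was 585.8 units in heterozygous hearts and 875.8 units in control hearts, a ratio of 0.669 (log2 difference -0.58, 95% interval -1.06 to -0.10). The unadjusted p was 0.0217 and the adjusted p 0.269 in limma, so Col15a1 did not pass. The difference was -0.38 without heterozygous 2, and -0.29 without the 4 arrays of high Actb ratio.

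**Figure D2:**
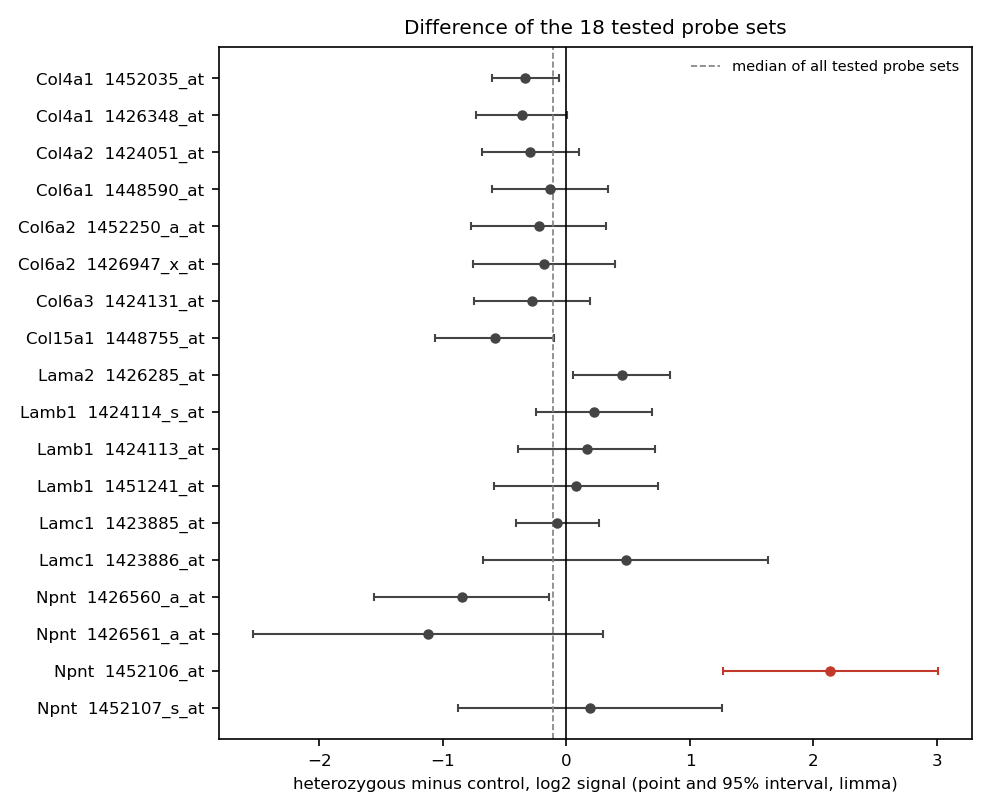
Log2 difference, heterozygous minus control, of the 18 tested probe sets with its 95% interval in limma; the dashed line is the median of all 38870 tested probe sets, at -0.11, and red marks the probe set that passed. All 8 collagen points lie left of 0 (6 of 8 with each array centred on its median, 8 of 8 with quantile normalization), 5 of 6 laminin points lie right of it, and Npnt has points on both sides.

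Lama2 encodes the laminin alpha chain that anchors the muscle fibre to its basement membrane, and loss of it causes a congenital muscular dystrophy. It had 743.9, 998.2 and 1907.9 units at the lowest, median and highest heterozygous array, against 679.9, 784.35 and 963.9 units in control hearts. Of the heterozygous arrays, 5 of 7 lay above the highest control array. The geometric mean was 1095 units in heterozygous hearts and 803.2 units in control hearts, 1.36-fold higher (log2 difference 0.45, 95% interval 0.05 to 0.84). The unadjusted p was 0.0291 and the adjusted p 0.290, so it did not pass. The difference was 0.54 without heterozygous 2 and 0.42 without the 4 arrays.

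Lamb1 and Lamc1 encode the beta and gamma chains that complete the trimer with Lama2. For Lamb1, the probe set 1424114_s_at had 476.7, 757.8 and 1038.1 units in heterozygous hearts, against 429.8, 642.9 and 940.9 units in control hearts. Its difference was 0.22 (adjusted p = 0.674), and it was -0.10 without the 4 arrays. The other tested probe sets of Lamb1 differed by 0.16 (adjusted p = 0.810) and 0.08 (adjusted p = 0.934), and the groups overlapped in each. The untested probe set of Lamb1 had 5.2 to 65.2 units in heterozygous hearts and 2.5 to 20.9 units in control hearts. For Lamc1, the probe set 1423885_at had 747.1, 1081.2 and 1478.7 units in heterozygous hearts, against 839.3, 1154.45 and 1222.1 units in control hearts. Its difference was -0.07 (95% interval -0.41 to 0.26; adjusted p = 0.861), and it was 0.16 without the 4 arrays. The weaker probe set of Lamc1 differed by 0.48 (adjusted p = 0.720; 1.1 without the 4 arrays), with 7.9 to 78.1 units in heterozygous hearts and 7.9 to 54.7 units in control hearts.

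Nephronectin gave the only call and also differences of both signs among its probe sets. In 1452106_at, the 7 heterozygous arrays had 54.6, 167.6, 64.5, 136.4, 145, 124.5 and 72.2 units, against 8.6, 10.6, 30.1, 39.6, 34.7, 55.3, 14.8 and 24.5 units on the 8 control arrays. The groups overlapped by 1 heterozygous array, and the other 6 of 7 lay above the highest control array. The geometric mean was 100.7 units in heterozygous hearts and 22.9 units in control hearts, 4.40-fold higher (log2 difference 2.14 ± 0.41, SE), with an adjusted p of 0.0441 in limma. The call was kept under 4 alternatives and lost under 8, which included no filter on low signals (2.14, adjusted p = 0.0537). The difference was 0.69 with a floor at a log2 signal of 6 (adjusted p = 0.131), 0.67 with the mean of atrial markers as a covariate (adjusted p = 0.855), and 2.16 without the 4 arrays (adjusted p = 0.0986). Leaving out each array in turn, the call held only without heterozygous 7 or without control 6.

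The probe set 1426560_a_at of Npnt went the other way. It had 12.1, 48.6 and 90.2 units at the lowest, median and highest heterozygous array, against 57.5, 75.95 and 119.2 units in control hearts. Of the heterozygous arrays, 5 of 7 lay below the lowest control array. The difference was -0.85 (95% interval -1.55 to -0.14), with an unadjusted p of 0.0222 and an adjusted p of 0.271, which did not pass. It was -0.54 without heterozygous 7, the lowest array at 12.1 units, -0.25 with a floor at a log2 signal of 6 and -1.20 without the 4 arrays. The other tested probe sets differed by -1.12 (1426561_a_at, adjusted p = 0.459) and 0.19 (1452107_s_at, adjusted p = 0.891), and the second was 0.052 without the 4 arrays. The untested probe set had 1.7 to 20.2 units in heterozygous hearts and 2.2 to 8.4 units in control hearts. Which transcript forms each probe set reads is not given in the sources used here, so the Npnt level as a whole has no settled direction. The promoter table holds 2 windows for Npnt, around starts at 132949814 and 132950291 on chromosome 3. The first has GGGCGG at 0 places and the second at 4. The second is shown because Npnt held the only call and the windows of its annotated starts differ in this way, and capitals mark GGGCGG on either strand.
Npnt, chr3:132950242-132950541, minus strand: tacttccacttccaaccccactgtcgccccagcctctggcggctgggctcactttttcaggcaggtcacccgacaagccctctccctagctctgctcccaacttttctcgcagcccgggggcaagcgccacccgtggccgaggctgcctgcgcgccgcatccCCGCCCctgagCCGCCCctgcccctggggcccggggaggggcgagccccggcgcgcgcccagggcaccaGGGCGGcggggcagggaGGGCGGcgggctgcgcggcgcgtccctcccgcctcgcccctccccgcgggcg

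The members were more spread out among heterozygous arrays. In 17 of 18 tested member probe sets (94.4%) the log2 SD was larger in heterozygous hearts than in control hearts, against 63.7% of all tested probe sets. For the 8 collagen probe sets the median SD was 0.58 in heterozygous hearts and 0.18 in control hearts. The same medians over all tested probe sets were 0.64 and 0.55, so the collagen value was low in control hearts and not high in heterozygous hearts. Without heterozygous 2, the SD was larger in heterozygous hearts in 16 of 18, against 23669 of all 38870 tested probe sets. The collagen median was then 0.35, against 0.61 over all tested probe sets. Heterozygous 2 was the lowest heterozygous array in 9 of 18 member probe sets and in 6 of the 8 collagen ones, against 13.6% of all tested probe sets.

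**Figure D3:**
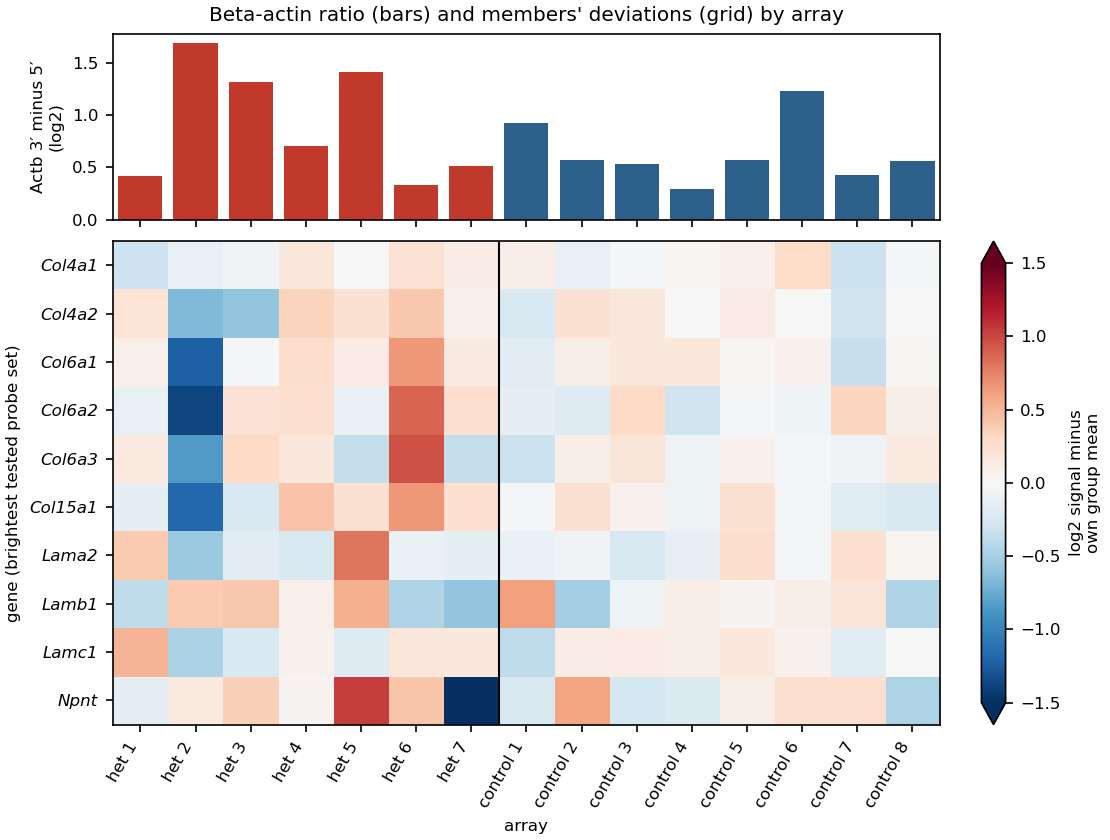
Bars give the log2 ratio of the 3′ to the 5′ Actb probe set on each array, with 7 heterozygous arrays left of 8 control arrays, and the grid gives the deviation of each member's probe set of highest mean from its own group mean in log2 units, blue for below and red for above. Heterozygous 2 has the highest bar, at 1.69, and a column of mostly blue cells.

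Several pairs of collagen genes moved together from array to array. Values of r within each genotype are given, and their difference between the genotypes was not tested. The 45 pairs of members were compared over 15 arrays after each group mean was subtracted, with p from 100000 permutations within groups, adjusted over the 45 pairs. By Pearson's r, 5 pairs passed, and by Spearman's rho 0 passed. Col4a2 and Col6a1 had r = 0.80 (permutation p = 2e-05, adjusted p = 0.0009) and rho = 0.79 (permutation p = 0.00194, adjusted p = 0.0552). Their r was 0.80 within the 7 heterozygous arrays and 0.86 within the 8 control arrays, and 0.79 without the 2 arrays farthest from the median of Col4a2. Col6a1 and Col15a1 had r = 0.92 (permutation p = 0.00042, adjusted p = 0.0063) and rho = 0.72 (permutation p = 0.00506, adjusted p = 0.0569). Their r was 0.53 without heterozygous 2 and 6, and it was 0.97 in heterozygous and 0.42 in control arrays. Col4a2 and Col15a1 had r = 0.83 (permutation p = 0.00022, adjusted p = 0.00495) and rho = 0.79 (permutation p = 0.00256, adjusted p = 0.0552), with r = 0.60 without heterozygous 2 and 3. For this pair r was 0.85 within heterozygous arrays and 0.68 within control arrays. Col4a2 and Lamc1 had r = 0.74 (permutation p = 0.00395, adjusted p = 0.0356) and rho = 0.62 (permutation p = 0.0323, adjusted p = 0.207), and r was 0.49 without heterozygous 2 and 3. Lamb1 in 1424114_s_at and Lamc1 in 1423885_at ran against each other, with r = -0.75 (permutation p = 0.00289, adjusted p = 0.0325) and rho = -0.76 (permutation p = 0.00368, adjusted p = 0.0552). The same probe sets also moved in opposite directions with the Actb ratio, with r = 0.71 for Lamb1 and r = -0.74 for Lamc1, and the part of that ratio in their relation was not tested. With that ratio, the other tested Lamb1 probe sets had r = -0.04 (1424113_at) and r = -0.60 (1451241_at). Their relation to Lamc1 was not tested, so the opposition holds for 1 probe set of Lamb1. Both genes of a pair were read on the same arrays and share their scaling.

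None of the 3 pairs of collagen VI chains passed. Col6a1 and Col6a2 had r = 0.83 (permutation p = 0.0204, adjusted p = 0.102) and rho = 0.34 (permutation p = 0.227, adjusted p = 0.575), with r = 0.97 in heterozygous arrays and -0.40 in control arrays. Without heterozygous 2 and 6 it was -0.26, so the pooled value rests on those arrays. Col6a1 and Col6a3 had r = 0.77 (permutation p = 0.0193, adjusted p = 0.102) and rho = 0.40 (permutation p = 0.190, adjusted p = 0.575), with r = 0.80 in heterozygous arrays and 0.51 in control arrays. Col6a2 and Col6a3 had r = 0.80 (permutation p = 0.0111, adjusted p = 0.0833) and rho = 0.53 (permutation p = 0.0553, adjusted p = 0.311), with r = 0.85 in heterozygous arrays and 0.39 in control arrays. Without heterozygous 2 and 6 r was 0.19 for Col6a1 with Col6a3 and 0.27 for Col6a2 with Col6a3, and without heterozygous 2 alone it was 0.62 and 0.67 for these pairs. Over the 15 pairs of collagens the median r was 0.64, and it was 0.37 without heterozygous 2. That median was 0.68 within heterozygous arrays and 0.24 within control arrays. The partner chains Col4a1 and Col4a2 had r = 0.32 (permutation p = 0.280, adjusted p = 0.505).

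**Figure D4:**
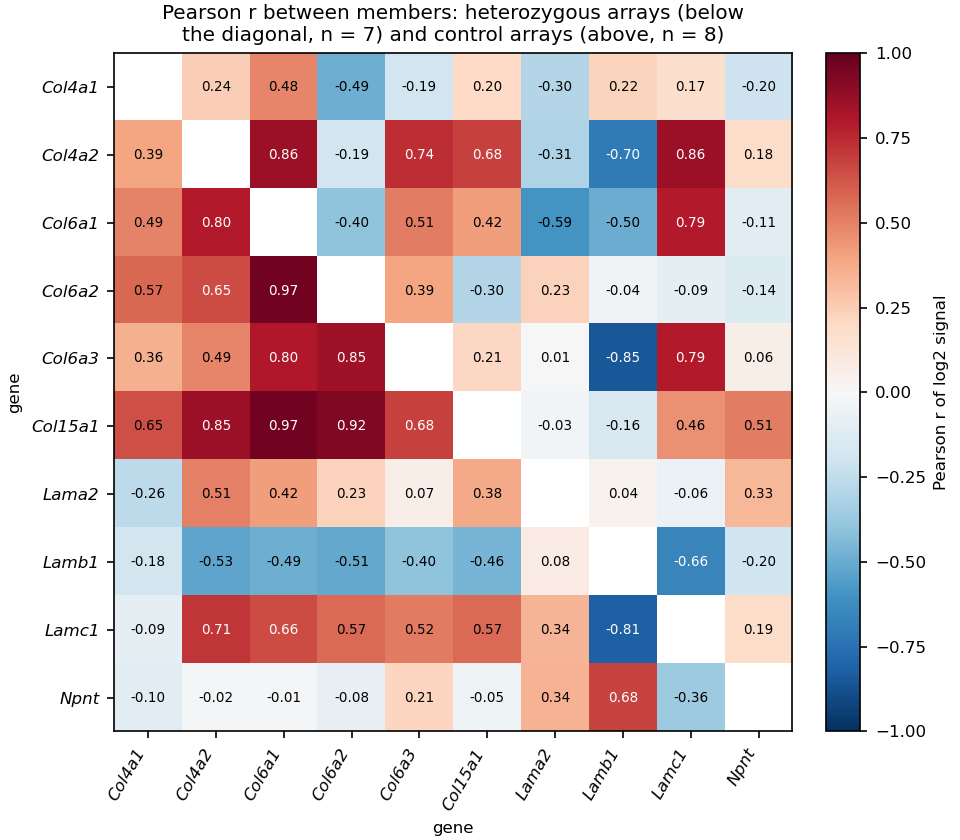
Pearson r of log2 signal between the members' probe sets of highest mean, with heterozygous arrays (n = 7) below the diagonal and control arrays (n = 8) above it, red for positive and blue for negative. The Col6a1 and Col6a2 cell is 0.97 in heterozygous arrays and -0.40 in control arrays, and the Lamb1 and Lamc1 cell is negative in both.

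The Actb ratio was set against the 18 tested member probe sets over the 15 arrays in the same way, which made 18 relations. Only Col4a1 in 1426348_at passed, with r = -0.85 (permutation p = 0.00067, adjusted p = 0.0121) and rho = -0.81 (permutation p = 0.00172, adjusted p = 0.0310). Its r was -0.86 in heterozygous arrays, -0.87 in control arrays and -0.84 without the 2 arrays farthest from the median ratio. Arrays with a higher Actb ratio had less signal in this probe set in both genotypes, while the other Col4a1 probe set had r = 0.10.

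**Figure D5:**
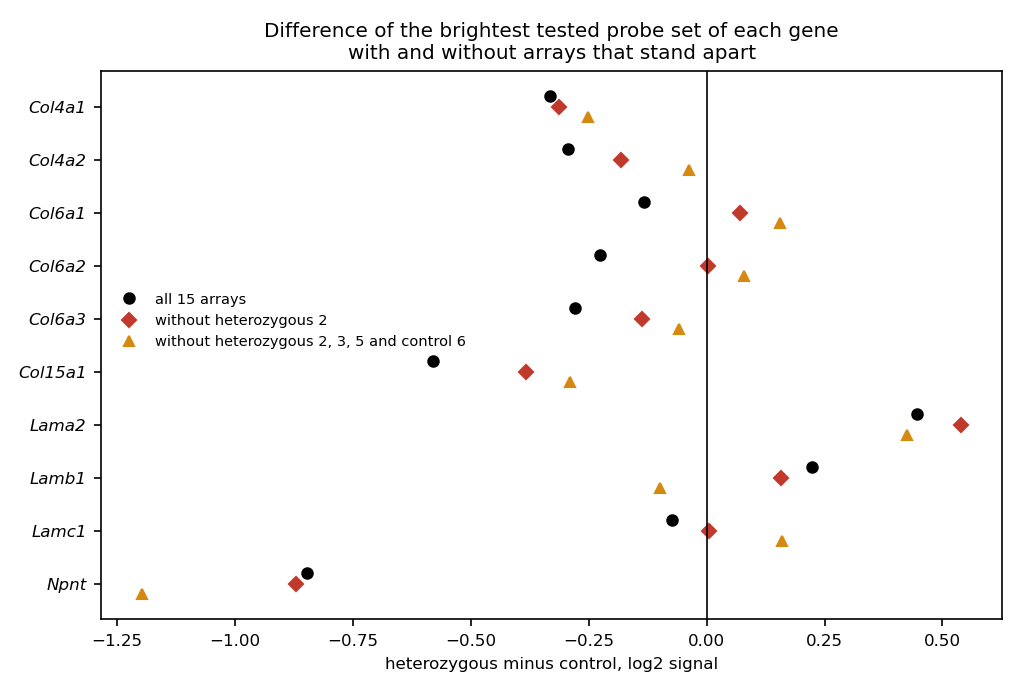
Log2 difference, heterozygous minus control, of each gene's tested probe set of highest mean over all 15 arrays (circles), without heterozygous 2 (diamonds) and without heterozygous 2, 3 and 5 and control 6 (triangles). The collagen points move towards 0 or past it, Lama2 stays between 0.42 and 0.54, and Lamb1 and Lamc1 change side.

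The genes whose array pattern was most like the mean pattern of the members were looked for over 15 arrays, after group means were subtracted. The members did not share this pattern evenly. Their own r with it ran from -0.26 for Lamb1, 0.27 for Npnt and 0.41 for Col4a1 to 0.91 for Col15a1 and 0.93 for Col6a1. The 5 non-member genes with the highest r were Col5a1 (0.94), Cited2 (0.91), Fscn1 (0.90), Col3a1 (0.89) and Disp1 (0.89). Without heterozygous 2, their r was 0.80, 0.84, 0.72, 0.72 and 0.60 in the same order, and their ranks among all genes were 4, 1, 31, 30 and 164. Fscn1, Col3a1 and Disp1 were thus among the 5 only with that array included. Col5a1 and Col3a1 encode fibrillar collagen chains, Cited2 a transcriptional co-regulator and Fscn1 an actin-bundling protein. None of the 5 passed for the genotype difference: Col5a1 had 798.7 units in heterozygous hearts and 729.6 units in control hearts (log2 difference 0.13, adjusted p = 0.832), and Cited2 had 1734 units in heterozygous hearts and 1401 units in control hearts (0.31, adjusted p = 0.361).

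Other genes of the same matrix system were examined in 8 lists, on the tested probe set of highest mean for each gene. Of 105 listed symbols, which include older names of listed genes, 90 were tested. Of these, 0 rose and 0 fell at the adjusted threshold, against 0.289% of all 16627 genes. At an unadjusted p under 0.05, 6 were higher and 4 lower in heterozygous hearts, against 15.2% of all genes. The median difference over the 90 was -0.03, against -0.08 over all genes. Of the 90, 51 lay below 0, and of all 16627 genes 9727 did. Among partners of the laminins and collagen IV, 12 of 15 nidogens, proteoglycans and linkers lay below 0. They included the perlecan gene Hspg2 (-0.38, adjusted p = 0.394) and Tinagl1 (-0.29, adjusted p = 0.387), and the other probe set of Hspg2 lay at -0.16. Among the 8 other basement membrane collagens, 5 lay above 0 and 3 below, with Col4a3 at -0.72 (adjusted p = 0.413) and Col8a2 at 0.64 (adjusted p = 0.433). Among the 6 other laminin chains, Lama3 differed by 0.53 (adjusted p = 0.485) and Lama5 by -0.32 (adjusted p = 0.555), and the other probe set of Lama3 lay at -1.18.

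Of the 5 other collagen VI chains and receptors, Col6a5 differed by -1.53 (adjusted p = 0.285) on signals of 2 to 49.9 units in heterozygous hearts and 18 to 53 units in control hearts. Cspg4, a proteoglycan that binds collagen VI, differed by -0.30 (adjusted p = 0.536), and its other probe set lay at -0.03. Among 14 microfibril glycoproteins, the fibulin gene Efemp1 had 175.6, 242.3 and 380.8 units at the lowest, median and highest heterozygous array, against 116.3, 150.95 and 199.6 units in control hearts. Its difference was 0.73 (adjusted p = 0.107), the smallest adjusted p of the 90 genes. Adamtsl2, a secreted protein that binds fibrillin microfibrils, had a geometric mean of 156.4 units in heterozygous hearts and 318.9 units in control hearts, a difference of -1.03 (adjusted p = 0.166).

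The integrin alpha chain gene Itga8, whose product binds nephronectin, had 164.3, 228.9 and 588.5 units in heterozygous hearts, against 96.3, 151.9 and 216.4 units in control hearts. Its difference was 0.76 (adjusted p = 0.235). Pomt2, an enzyme that starts the sugar chains by which dystroglycan binds laminin, had 204, 227 and 307.4 units in heterozygous hearts, against 290.1, 373.5 and 889 units in control hearts, and differed by -0.82 (adjusted p = 0.145). Among 16 integrin and dystroglycan receptor genes, 12 lay below 0, against 9727 of all 16627 genes. Of the 3 nephronectin relatives, Egfl7 differed by -0.07 and Mamdc2 by -0.34 (adjusted p of 0.854 and 0.790), and the tested probe sets of Egfl7 ranged from -0.11 to 0.29. Among 23 tested genes listed under collagen folding and modification, Colgalt2, a collagen galactosyltransferase, differed by 1.05 (adjusted p = 0.340) and Mia3, a receptor that loads collagen for export, by 0.32 (adjusted p = 0.333). Another probe set of Mia3 lay at -1.04.

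Summed signals of markers of several cell types differed between the groups, and their part in the matrix results was not tested. The 10 fibroblast markers, whose cells make much of the collagen VI, summed to 32994 to 41280 units in heterozygous hearts and 23990 to 32398 units in control hearts, and 5 were higher at an unadjusted p under 0.05, against 4.44% of all probe sets. Heterozygous 2 had the lowest fibroblast sum of its group, at 32994 units. The 12 endothelial markers summed to 20647 to 32262 units in heterozygous hearts and 19000 to 26472 units in control hearts, with 3 higher at that level. None of these fibroblast or endothelial markers passed the adjusted threshold in limma. The 9 tested atrial markers summed to 11581 to 42703 units in heterozygous hearts and 7397 to 12043 units in control hearts. Of these 9, 3 rose at the adjusted threshold, against 0.0900% of all probe sets. With an unadjusted p under 0.05 in limma, 6 were higher, against 4.44% of all, and 1 was lower, against 10.1% of all. The 6 tested blood markers summed to 1748 to 3374 units in heterozygous hearts and 3441 to 4330 units in control hearts. Of these 6, 2 fell at the adjusted threshold, against 0.162% of all probe sets. The lowest signal of a fibroblast marker on any array was 233.3 units, and that of an endothelial marker was 140.9 units. It was 2.8 units for an atrial marker and 8.3 units for a blood marker, both below the filter. In whole hearts, fewer cells of a type and less RNA per cell cannot be told apart.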

How the data were processed

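The members, gene lists and tests were chosen with earlier results of these data known. Whole-heart total RNA was extracted with a spin-column kit and labelled with biotin, per the labels' protocols. As deposited, the values are intensities, with 1 linear signal per probe set and array, credited to GCRMA in the submitters' processing notes with no version. The mean trimmed by 2% at each end was 250.0 on every array, so the authors' signals share a common target and array medians ranged from 56.7 to 94.2. How probes were summarised is not settled by the sources used here, and no batch could be tested.

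Signals were log2-transformed with no pseudocount. Probe sets above a log2 signal of 4 on at least 7 of 15 arrays were tested with limma 3.58.1 in R 4.3.3, with group as the only term. Array number limits the precision, and the p-values rest on the spread among these arrays, part of which may be technical. Genes were named from the platform annotation, where 34958 probe sets had 1 symbol, 932 several and 9211 none. Where 1 probe set stands for a gene, it is the tested one with the highest mean. Named beside the members were Lmna, up to 2 genes with the smallest p in each of 8 lists, and the 5 genes most like the members' mean pattern. The limma script was tested on simulated data. The alternatives tried were leaving out the filter, raising it to a log2 signal of 6, centring, quantile normalization, a floor, array weights, another prior, covariates, a replicate block, an exact rank sum test, an added 16 units and leaving out each array. The fit without 4 arrays of high Actb ratio was added after seeing the data. The deviations of same-numbered arrays had correlations of -0.06 to 0.06, so they show no broad pairing by number. A pairing that touches few genes could not be seen in this way.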

Additional observations from a re-analysis of the deposited data

Results flagged for a closer look

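Within each group, the array at either end was compared with its nearest neighbour, in 40 groups of member probe sets. The measure was the gap over the group's whole range in log2 signal (Dixon's ratio), while the units printed here are linear. Chance gives about 1 in 20 groups, and 3 of 40 were past the critical value. Heterozygous 2 was the lowest of 7 arrays for Col6a1 (1448590_at), at 548 units against 1271.4 units on the next array, a ratio of 0.646. Control 5 was the lowest of 8 arrays for Col6a2 (1426947_x_at), at 792.5 units against 1170.3 units on the next, a ratio of 0.622. Heterozygous 7 was the lowest of 7 arrays for Npnt (1426560_a_at), at 12.1 units against 40 units on the next, a ratio of 0.595.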

How the results depend on the processing

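Over the whole table, 98 probe sets passed (35 higher, 63 lower). The count was 192 with a filter at a log2 signal of 6, 65 with each array centred on its median (51 higher, 14 lower) and 65 with quantile normalization (37 higher, 28 lower). It was 287 with a floor at a log2 signal of 6, 312 with a trended and robust prior and 199 with 16 units added. It was 1 with the replicate block, and 0 with the atrial mean as a covariate (limma) and in the exact rank sum test, where 4953 had an unadjusted p under 0.05. It ran from 17 to 150 when each array was left out. Of the members' probe sets, 1 passed, and 0 did with no filter, the filter at 6 (where the called Npnt probe set was not tested), quantile normalization, the floor, the replicate block, the Actb or atrial covariate, the rank sum test or without the 4 arrays. The count ran from 0 to 1 with each array left out. Of the pathway genes 0 passed, against 1 (Mia3, in a lower probe set) with the filter at 6, array weights, the trended prior, the Actb covariate or 16 units added, and 2 (Efemp1, higher, and Mia3) with the floor. That count ran from 0 to 1 with each array left out. No broad pairing by number was seen, and the block gave Npnt (1452106_at) 2.15 with an adjusted p of 0.136 in limma.

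Differences that changed sign were as follows, and the cause was not tested. With centring they were 0.071 for Col6a1, 0.025 for Col6a2 (1426947_x_at) and 0.13 for Lamc1 (1423885_at). With the Actb covariate they were 0.032 for Col6a1 and 0.050 for Lamc1. With the atrial covariate they were 0.14 for Col4a1 (1426348_at), -0.23 and -0.27 for Lamb1 (1424113_at and 1424114_s_at), 0.15 for Lamc1, 0.049 for Npnt (1426561_a_at) and -1.21 for Npnt (1452107_s_at). Without the 4 arrays they were 0.16 for Col6a1, 0.099 and 0.079 for Col6a2 (1426947_x_at and 1452250_a_at), -0.10 for Lamb1 (1424114_s_at) and 0.16 for Lamc1. With each array left out, the range spanned 0 for Col6a1 (-0.24 to 0.071), Col6a2 (-0.32 to 0.056 in 1426947_x_at and -0.37 to 0.0034 in 1452250_a_at), Lamb1 (-0.059 to 0.27 in 1451241_at), Lamc1 (-0.16 to 0.0056) and Npnt (-0.10 to 0.49 in 1452107_s_at). The members' median was between -0.36 and -0.07 in those fits, against -0.25 over all arrays. Weak signals near the filter limit Npnt, the weaker Lamc1 probe set and the untested Lamb1 probe set.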
